A study of Mus musculus with 6 samples.

Results

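The ERBB group followed here holds 10 genes: the receptors Egfr, Erbb2 and Erbb3, the ligands Areg, Ereg, Hbegf, Btc, Tgfa and Nrg1, and the receptor inhibitor Errfi1. They were chosen by gene symbol, and all 10 were found among the 24964 symbols of the deposited table. The data are RNA sequencing of mouse uterus at gestation day 13, from tissue around the implantation sites. There were 3 libraries labelled with a myometrial deficiency of PGR, the progesterone receptor, in columns named Mutant, and 3 libraries labelled control. The myometrium is the muscle wall of the uterus. The sources used here do not give the promoter used to bring about the deficiency or the part of Pgr removed. Nor do they give the genotype of the controls, the strain or the age of the mice. They also do not say whether each library is a separate animal, so p-values measure the spread between libraries, which may be technical. Values are FPKM, fragments on a gene scaled to its length and to library size.

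ERBB receptors are tyrosine kinases of the cell surface. Ligands made as membrane-bound precursors are cut free by proteases, bind the receptors and bring them together in pairs, which switches on the RAS-ERK and PI3K pathways. EGFR binds most of the ligands, ERBB2 has no known ligand of its own and serves as a partner, and ERBB3 binds neuregulins but has a weak kinase. Errfi1, also called Mig-6, binds the kinase domains of active receptors and blocks them, and its gene is induced by the same signals. In mouse uterus Errfi1 is known as a gene that responds to progesterone through its receptor, and the ligands are known for their part in implantation.

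Across the whole table, FPKM summed to between 357126 and 372372 in the labelled deficient libraries and between 372412 and 377091 in the controls. These values are already scaled to library size, so their sums do not measure depth. Pgr itself was at 11.3, 12.4 and 7.73 FPKM in the labelled deficient libraries, against 9.72, 8.33 and 12.1 FPKM in the controls, so its level did not bear out the label (limma adjusted p = 0.91). The groups overlapped, and the first group is therefore called labelled deficient in what follows. Every direction below rests on that label. A whole-gene level in bulk uterus may not show a loss confined to muscle or to part of the gene. The Pgr level therefore does not contradict the label either. Prap1 took a larger share of all FPKM in labelled deficient 3 and control 3 than elsewhere, at 9.92% in labelled deficient 3 and 10.1% in control 3 against 6.08% to 7.22% in the others. Markers of smooth muscle, epithelium and stroma were present in all libraries. Trophoblast markers summed to between 0.32 and 1.21 FPKM in the labelled deficient libraries and between 0.985 and 2.11 FPKM in the controls, and 2 of the 8, Hand1 and Gcm1, were listed at 0 throughout.

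Errfi1 fell in the labelled deficient libraries while Erbb2 and Erbb3 rose, and Egfr, Tgfa, Nrg1 and Hbegf did not pass the test. Tests were run with limma on log2(FPKM + 1) over 12500 genes whose mean was at least 1 FPKM. Of the 10 members, 7 reached that mean, and 3 of these had an adjusted p under 0.05, 2 higher and 1 lower. Over all genes tested, 3.34% were called, 1.34% higher and 1.99% lower, and the median difference was 0.06 on the log2 scale. The labelled deficient and control values did not overlap for 4 of the 7 members tested, Errfi1, Erbb2, Erbb3 and Tgfa, and for 29.0% of all genes tested. Areg, Ereg and Btc lay under the minimum and were left out of this limma fit. Exact permutation tests gave p = 0.3 for Areg, 0.2 for Ereg and 0.6 for Btc.

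**Figure D1:**
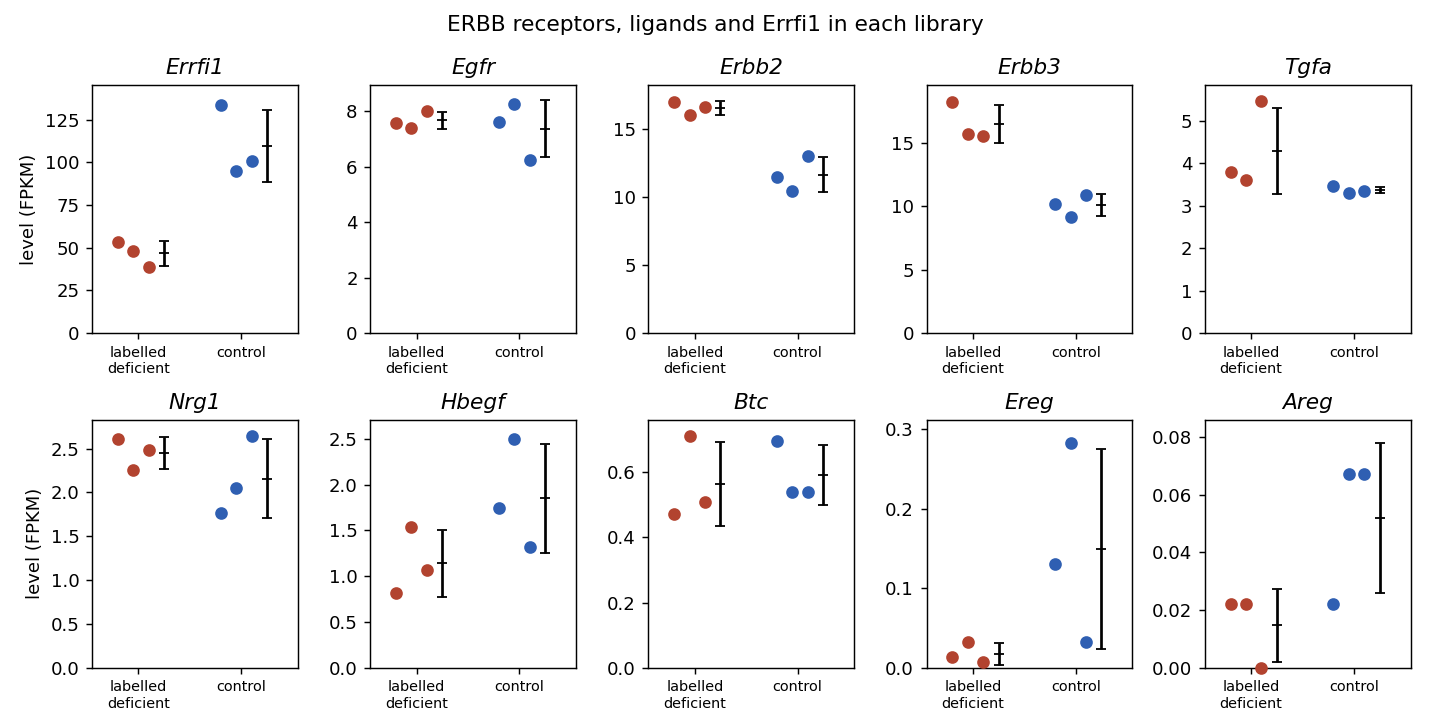
Level of each of the 10 genes in FPKM, on linear axes that start at 0 and differ between panels. Red points are the 3 labelled deficient libraries and blue points the 3 controls, in the order 1, 2, 3, and the black bar is the mean with its SD (n = 3). Errfi1 sits between 38.9 and 53.2 FPKM in the labelled deficient libraries and between 94.7 and 133.8 FPKM in the controls, while the points of Egfr intermix.

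The start region of Errfi1 is shown because, among the 7 members tested, it had the largest difference in log2(FPKM + 1), and that of Erbb2 because it is the receptor that rose for which a window was given. Each window runs from 250 bases before to 50 bases after a transcription start (RefSeq, GRCm38.p6), which is the build, mm10, named in the submitters' processing notes. Windows were matched for 6 of the 10 members. Errfi1 has a pair of windows on the plus strand, chr4:150853546-150853845 (upstream) and chr4:150854820-150855119 (downstream), and that of Erbb2 is chr11:98412234-98412533, also on the plus strand. Capitals mark matches, on either strand, to the GC box GGGCGG, bound by SP1 family factors, and to the cAMP response element TGACGTCA.
Errfi1 upstream start: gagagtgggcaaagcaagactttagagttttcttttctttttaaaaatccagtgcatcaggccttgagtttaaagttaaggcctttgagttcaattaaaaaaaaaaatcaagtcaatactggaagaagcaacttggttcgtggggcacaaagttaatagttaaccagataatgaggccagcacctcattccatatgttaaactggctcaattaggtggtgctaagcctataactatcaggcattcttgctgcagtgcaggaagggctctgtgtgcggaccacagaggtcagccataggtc
Errfi1 downstream start: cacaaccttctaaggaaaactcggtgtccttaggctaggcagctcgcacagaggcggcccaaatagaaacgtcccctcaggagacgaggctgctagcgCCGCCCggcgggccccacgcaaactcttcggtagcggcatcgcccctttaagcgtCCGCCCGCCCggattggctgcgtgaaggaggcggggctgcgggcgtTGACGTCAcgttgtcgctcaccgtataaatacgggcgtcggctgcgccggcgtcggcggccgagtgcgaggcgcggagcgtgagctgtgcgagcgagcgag
Erbb2 start: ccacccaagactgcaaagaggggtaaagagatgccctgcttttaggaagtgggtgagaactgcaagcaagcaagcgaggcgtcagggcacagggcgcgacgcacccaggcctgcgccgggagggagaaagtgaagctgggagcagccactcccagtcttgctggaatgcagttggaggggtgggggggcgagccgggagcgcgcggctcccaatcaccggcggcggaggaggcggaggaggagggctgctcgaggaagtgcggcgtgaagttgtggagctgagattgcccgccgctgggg
The downstream Errfi1 window held 3 GC box matches, 2 of them overlapping, and 1 cAMP response element. The upstream Errfi1 window and the Erbb2 window held none of either. Over 32851 windows of the same length, 35.7% held the GC box and 1.79% the cAMP response element. The half-site TGTTCT, of the element to which progesterone and glucocorticoid receptors bind, was in 19.0% of all windows, and the AP-1 site TGANTCA in 7.81%. Neither had a match in these 3 windows. The downstream Errfi1 window had a GC content of 66.7% and the upstream one 42.0%, against a median of 52.7% over all windows. Such matches are of letters and do not show binding.

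Errfi1, the inhibitor (chromosome 4, 150853919 to 150868892, plus strand, GRCm38), was the most abundant transcript of the 10 in every library. It was at 53.2, 48.2 and 38.9 FPKM in the labelled deficient libraries, against 133.8, 94.7 and 100.8 FPKM in the controls. The highest labelled deficient library was thus well under the lowest control. The means were 46.8 ± 7.3 FPKM in labelled deficient libraries and 109.8 ± 21.0 FPKM in controls (SD, n = 3 each), which is 2.35 times lower. In log2(FPKM + 1) the difference was -1.21 (SE 0.17, 95% confidence interval -1.61 to -0.81, limma adjusted p = 0.020). Among all symbols, ranked from the highest level down, Errfi1 stood at places 973, 1081 and 1357 in the labelled deficient libraries and at 356, 501 and 444 in the controls. Errfi1 lost its call when control 1, control 2, labelled deficient 1 or labelled deficient 2 was left out, with an adjusted p up to 0.066 and a difference between -1.31 and -1.06. For single values, exact permutation tests are two-sided throughout, and that of Errfi1 gave p = 0.1, the smallest that 3 libraries against 3 allow.

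Smooth muscle markers moved with Errfi1. Of 8 such markers, 8 fell, with log2 differences between -2.24 (Actg2) and -0.73 (Lmod1) and a median of -1.05. Their summed level was between 3261 and 3845 FPKM in the labelled deficient libraries and between 8070 and 9848 FPKM in the controls. None of them was at 0. The number with an adjusted p under 0.05 was 4 without control 1 or without control 2 and 5 without labelled deficient 1, while 0 of the 8 differences were above 0 in these fits and the medians were -0.98, -1.02 and -1. Set against the mean log2(FPKM + 1) of these 8 markers in its own library, Errfi1 was at -2.35, -2.73 and -2.83 in the labelled deficient libraries and at -2.41, -2.85 and -2.62 in the controls. On this measure the groups overlapped, with a difference of -0.01 (between -0.16 and 0.09 with 1 library left out) and an exact permutation p of 1. The measure was chosen after the values were seen, and its value depends on which markers are averaged. Of 5 mast cell markers, 4 also fell, while Kit had a difference of -0.02 in log2(FPKM + 1) (limma adjusted p = 0.90). Over all genes tested, 1.99% were called lower. The summed level of the 5 mast cell markers was between 2.96 and 5.25 FPKM in the labelled deficient libraries. In the controls it was between 27.7 and 33.9 FPKM, and none of the 5 was at 0. Of 5 nerve and Schwann cell markers, 1 was tested, Uchl1, and it fell by 1.22 in log2(FPKM + 1). The summed level of these 5 was between 3.02 and 3.41 FPKM in the labelled deficient libraries and between 6.447 and 9.001 FPKM in the controls. The part of these cells in the Errfi1 values was not tested. In a bulk sample, fewer cells of a type and less RNA per cell cannot be told apart. Set against 9 epithelial markers in the same way, Errfi1 was at -0.841, -0.999 and -0.976 in the labelled deficient libraries and at 0.927, 0.505 and 0.495 in the controls, with no overlap.

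The 5 genes whose centred profile over the 6 libraries was nearest to that of Errfi1 were S100a6, Gnaz, Fabp4, Aifm2 and Tpm1. Nearness was the root mean square difference in log2(FPKM + 1), and it lay between 0.13 and 0.19. A lower level in the labelled deficient libraries follows from this choice. S100a6, a calcium-binding protein, was nearest, with means of 230.9 FPKM in labelled deficient libraries and 540.7 FPKM in controls. Tpm1, a tropomyosin of the contractile apparatus, had means of 324.7 FPKM in labelled deficient libraries and 816.6 FPKM in controls. Gnaz encodes a G protein alpha subunit, Fabp4 a fatty acid binding protein and Aifm2 an oxidoreductase.

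Among the receptors, Egfr (chromosome 11, 16752203 to 16918158, plus strand) showed no detectable difference. Its level was 7.59, 7.42 and 8.01 FPKM in the labelled deficient libraries, against 7.63, 8.27 and 6.24 FPKM in the controls. The controls spanned the whole range of the labelled deficient libraries. The log2 difference was 0.06 (SE 0.10, 95% confidence interval -0.19 to 0.30, limma adjusted p = 0.78), and it was negative with median-of-ratios scaling, with array weights, without control 3 and without the third library of both groups. The interval allows a change of up to 0.30 in log2(FPKM + 1) upward. The 5 genes nearest to Egfr in profile were Mrps22, Ssb, Cenpc1, Ubtd2 and Erich1. Their differences lay between 0.04 and 0.08 in log2(FPKM + 1), which follows from their choice by nearness to Egfr.

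Erbb2 (chromosome 11, 98412470 to 98437716, plus strand), the partner receptor, rose. It was at 17.0, 16.0 and 16.6 FPKM in the labelled deficient libraries, against 11.5, 10.5 and 13.0 FPKM in the controls. All labelled deficient libraries lay above all controls and within a narrower range. The means were 16.6 ± 0.5 and 11.7 ± 1.3 FPKM in labelled deficient and control libraries (SD, n = 3 each), and the log2 difference was 0.48 (SE 0.09, 95% confidence interval 0.27 to 0.68, limma adjusted p = 0.040). The call was lost with no filter (0.064), with median-of-ratios scaling (0.089), with quantile normalization (0.082) and when any library but control 3 was left out (adjusted p up to 0.16).

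Erbb3 (chromosome 10, 128567523 to 128589652, minus strand), the neuregulin receptor, also rose. Its level was 18.2, 15.7 and 15.6 FPKM in the labelled deficient libraries, against 10.2, 9.16 and 10.9 FPKM in the controls. The groups were again fully apart, with labelled deficient 1 highest. The means were 16.5 ± 1.5 FPKM in labelled deficient libraries and 10.1 ± 0.9 FPKM in controls (SD, n = 3 each), and the log2 difference was 0.66 (SE 0.09, 95% confidence interval 0.44 to 0.88, limma adjusted p = 0.020). Leaving out control 1, control 2, labelled deficient 1 or labelled deficient 2 ended the call (adjusted p up to 0.093). The 95% intervals of Erbb2 and Erbb3 overlap, and limma was not used to test one gene against the other.

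**Figure D2:**
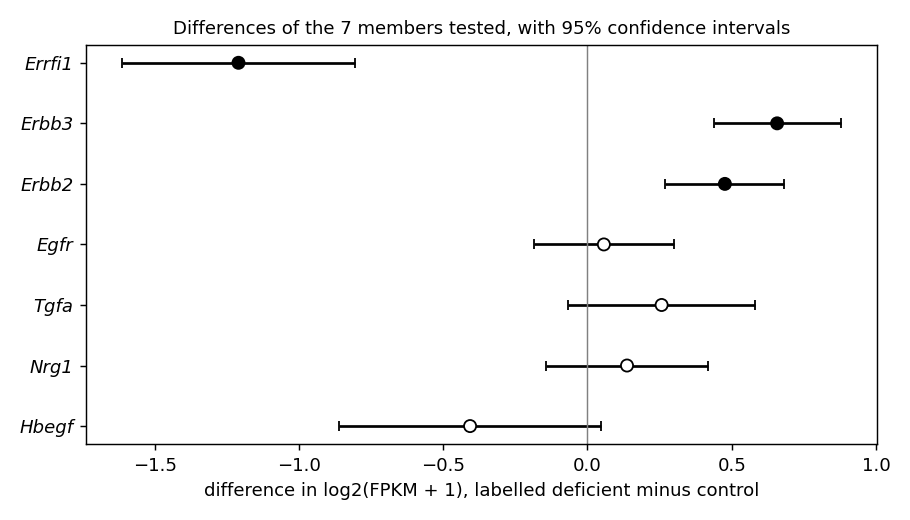
Difference in log2(FPKM + 1), labelled deficient minus control, for the 7 members tested, with 95% confidence intervals from limma over the 6 libraries. Filled points have an adjusted p under 0.05: Errfi1 at -1.21, Erbb3 at 0.66 and Erbb2 at 0.48.

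Of 9 markers of epithelium, 2 rose as both receptors did, Cdh1 (E-cadherin) and Krt19 (keratin 19), and 7 did not pass the test, Cldn4 being flattest at 0.001 in log2(FPKM + 1). Values of 6 of the 9 overlapped between the groups. All 9 differences were above 0 (8 or 9 under the alternatives), and the median of the 9 markers was 0.31 on the log2 scale. Their summed level was between 939.8 and 1342 FPKM in the labelled deficient libraries and between 807.8 and 945.1 FPKM in the controls, and none was at 0. The number with an adjusted p under 0.05 was 6 without the third library of both groups, 4 without labelled deficient 3, 1 without control 1, and 0 without control 2, control 3, labelled deficient 1 or labelled deficient 2. In the fits with 0 the median difference was between 0.21 and 0.38, and 8 or 9 of the differences were above 0. Set against the mean log2 of these markers in its own library, Erbb2 was at -2.43, -2.53 and -2.15 in the labelled deficient libraries and at -2.51, -2.55 and -2.36 in the controls. These overlapped, with a difference of 0.10 (between -0.004 and 0.18 with 1 library left out) and an exact permutation p of 0.6. Erbb3 on the same measure was at -2.34, -2.56 and -2.24 in the labelled deficient libraries and at -2.66, -2.73 and -2.60 in the controls. Here the groups did not overlap, with a difference of 0.29 and the smallest exact permutation p possible, 0.1. These measures were also chosen after the values were seen.

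**Figure D3:**
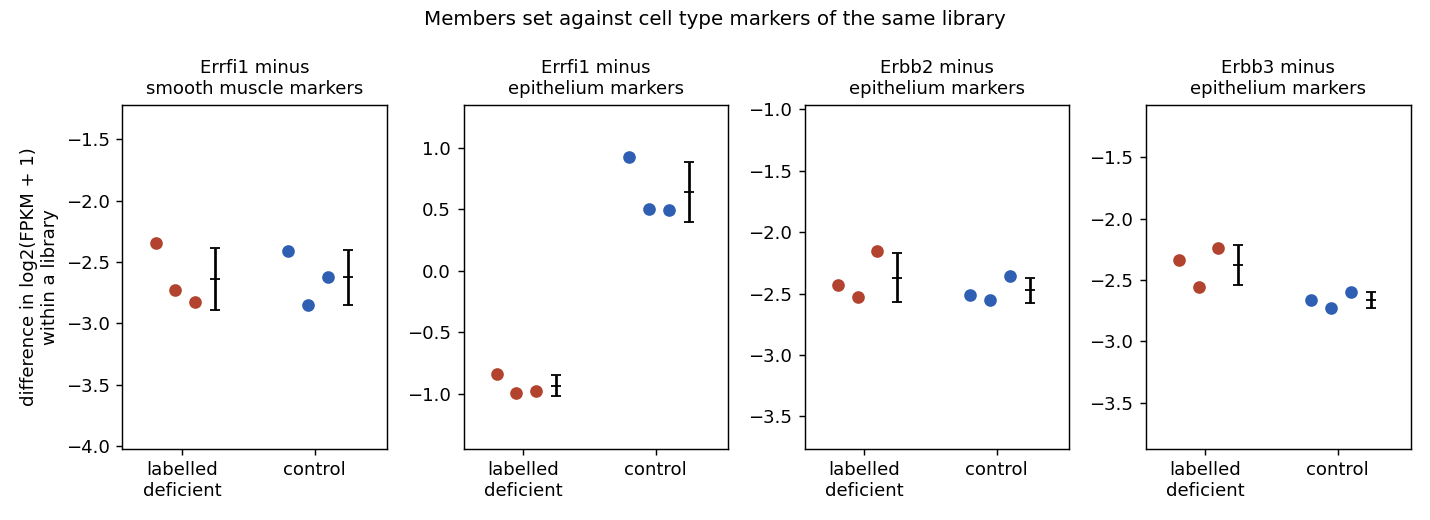
Members set against the mean of cell type markers of the same library, as a difference in log2(FPKM + 1). Red points are labelled deficient libraries, blue points controls, black bars the mean with SD (n = 3), and every panel spans the same height. Errfi1 against the smooth muscle markers differs by -0.01 between the groups and Errfi1 against the epithelial markers by -1.58.

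Relative to the receptors, Errfi1 was also lower in the labelled deficient libraries in value. Per unit of Egfr, Errfi1 was at 7.01, 6.5 and 4.85 in the labelled deficient libraries, against 17.5, 11.5 and 16.2 in the controls. Per unit of the summed Egfr, Erbb2 and Erbb3, it was at 1.24, 1.23 and 0.97 in the labelled deficient libraries, against 4.56, 3.39 and 3.34 in the controls. On both ratios the groups were apart, the second by 3.28 times in the means, and the exact permutation p was 0.1 for each. Both ratios were chosen after the values were seen. They restate the lower Errfi1, and the second also the higher Erbb2 and Erbb3, and are no separate support. The summed receptor level was 40.7 ± 1.9 FPKM in labelled deficient libraries and 29.1 ± 1.1 FPKM in controls (SD, n = 3 each).

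Tgfa, transforming growth factor alpha, a ligand of EGFR, was the most abundant of the 6 ligands (chromosome 6, 86195223 to 86275719, plus strand). It was at 3.79, 3.60 and 5.45 FPKM in the labelled deficient libraries, against 3.45, 3.31 and 3.35 FPKM in the controls. All labelled deficient libraries lay above the controls, 2 of them by little, and labelled deficient 3 stood high. The log2 difference of 0.26 (95% confidence interval -0.07 to 0.58) did not pass (limma adjusted p = 0.33), and it was 0.10 without labelled deficient 3. Nrg1, the neuregulin that binds ERBB3 and ERBB4, was at 2.61, 2.26 and 2.49 FPKM in the labelled deficient libraries, against 1.76, 2.06 and 2.65 FPKM in the controls. The groups overlapped (log2 difference 0.14, 95% confidence interval -0.14 to 0.42, limma adjusted p = 0.54), and the difference was 0.05 without control 1 and 0.25 without control 3.

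Hbegf, the heparin-binding ligand of EGFR and ERBB4 known from the attachment of the mouse blastocyst, was at 0.81, 1.54 and 1.07 FPKM in the labelled deficient libraries, against 1.74, 2.50 and 1.32 FPKM in the controls. Labelled deficient 2 lay above control 3, so the groups overlapped. The log2 difference was -0.41 (95% confidence interval -0.86 to 0.05, limma adjusted p = 0.28), and -0.25 without control 2. Btc, betacellulin, was at 0.47, 0.71 and 0.51 FPKM in the labelled deficient libraries, against 0.70, 0.54 and 0.54 FPKM in the controls, again with overlap. The summed level of the 6 ligands was 7.71, 8.16 and 9.52 FPKM in the labelled deficient libraries and 7.80, 8.75 and 7.95 FPKM in the controls, with an exact permutation p of 0.7.

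Ereg (epiregulin), Areg (amphiregulin) and Btc are neighbours on chromosome 5, together with Epgn (epigen), a further EGFR ligand, in a stretch of 376 kb (91027464 to 91402994, GRCm38). The highest value of these 4 ligand genes in any library was 0.711 FPKM, that of Btc in labelled deficient 2. Ereg and Areg have a single annotated transcript each, so their values could be turned into reads. The library size used was the one that brought low values of single-transcript genes nearest to whole reads, between 36600000 and 36950000 in each library. All of their values came within 0.13 of a whole read. Ereg was at 2, 5 and 1 reads in the labelled deficient libraries and at 20, 43 and 5 reads in the controls. Control 3 and labelled deficient 2 tied, and the exact permutation p was 0.2. Areg was at 1, 1 and 0 reads in the labelled deficient libraries and at 1, 3 and 3 reads in the controls, which is at or under 3 reads in every library and too few to show a difference. Amphiregulin, known in mouse uterus as a progesterone-induced gene of the epithelium at implantation, was therefore not detectable above a few reads on this day.

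Prl8a2, a decidual hormone gene picked after its values were seen, ordered the libraries much as Ereg did. From the highest, Prl8a2 ran control 2, control 1, control 3, labelled deficient 2, labelled deficient 1 and labelled deficient 3, and Ereg ran the same way except for the tie of control 3 with labelled deficient 2. Prl8a2 was at 5.44, 26.5 and 0.664 FPKM in the labelled deficient libraries and at 154.7, 354.6 and 60.4 FPKM in the controls. Its difference did not pass the test (limma adjusted p = 0.089). Of the 8 markers of decidua and stroma, 7 were tested and 0 passed with limma (4 at an unadjusted p under 0.05). The median difference was 0.02 in log2(FPKM + 1) (-0.05 with median-of-ratios scaling), with 4 of the 7 above 0. Vim (vimentin) and Hand2, a transcription factor of the stroma, had differences of -0.53 and -0.48, while Pdgfra, a receptor of stromal cells, had one of 0.43 and Bmp2, a growth factor of the decidua, one of 0.24. Hoxa10 and Hoxa11, homeobox factors of the uterus, were at 0.02 and 0.16. Wnt4, under the minimum, was at 0.994, 0.941 and 0.942 FPKM in the labelled deficient libraries and at 0.686, 0.604 and 0.646 FPKM in the controls. The summed level of the 8, most of it Vim and Prl8a2 in the controls, was between 338.8 and 427.0 FPKM in the labelled deficient libraries and between 470.9 and 963.0 FPKM in the controls, and none was at 0. The part of decidual tissue in the Ereg values was not tested.

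By level, the members fell into the same order of means in both groups: Errfi1, Erbb2, Erbb3, Egfr, Tgfa, Nrg1, Hbegf, Btc, Ereg and Areg. The ranges of neighbours overlapped for Erbb2 with Erbb3 and for Ereg with Areg in both groups, and for Nrg1 with Hbegf in the controls. FPKM is per length, which allows levels of different genes to be set side by side, within the uncertainty of the gene models, of which Nrg1 has 18 annotated transcripts and Erbb3 has 1.

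The other receptor and ligand genes of the family were low. Of Erbb4, Egf, Epgn, Nrg2, Nrg3 and Nrg4, only Nrg4, a ligand of ERBB4, had a mean of at least 1 FPKM, and its difference was 0.04 in log2(FPKM + 1) (limma adjusted p = 0.86). Erbb4 was at 0.61, 0.95 and 0.96 FPKM in the labelled deficient libraries, against 0.49, 0.55 and 0.72 FPKM in the controls.

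Beyond the family, no gene of the 4 pathway lists passed with limma. Without the third library of both groups, 1 shedding gene, 1 core pathway gene and 2 ERK-induced genes passed, and array weights called 2 in each list. Of 9 genes for the shedding of ligands, 0 passed, 2 had an unadjusted p under 0.05 and the median difference was 0.10 in log2(FPKM + 1). Adam9, a membrane protease, was at 38.1 ± 5.2 FPKM in labelled deficient libraries and 50.5 ± 1.4 FPKM in controls (SD, n = 3 each, adjusted p = 0.11 with limma). The related Adam15 had a difference of -0.31, and Timp3, an inhibitor of ADAM17, one of -0.23. Adam10, which sheds several of the ligands, had a difference of 0.12.

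Of 20 receptor and RAS-ERK inhibitors tested, 0 passed with limma, 3 had an unadjusted p under 0.05 and the median difference was -0.08 in log2(FPKM + 1). Dusp1, a phosphatase of MAP kinases, was at 15.6, 19.9 and 17.6 FPKM in the labelled deficient libraries, against 25.6, 22.2 and 29.2 FPKM in the controls (adjusted p = 0.093 with limma). Dusp5, a nuclear phosphatase of ERK, was at 1.27, 2.08 and 1.55 FPKM in the labelled deficient libraries, against 2.88, 4.35 and 2.26 FPKM in the controls. The groups of both genes did not overlap, as for 29.0% of all genes. Lrig3, of a family of transmembrane regulators of receptor kinases, had a difference of 0.40 and the ubiquitin ligase Cblb one of -0.13.

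Of 22 core genes of the RAS-ERK and PI3K pathways tested, 0 passed with limma, 3 had an unadjusted p under 0.05 and the median difference was 0.07 in log2(FPKM + 1), next to 0.06 over all genes (-0.001 and -3.89e-05 with median-of-ratios scaling). Pik3cb, a catalytic subunit of PI3K, came closest, at 5.05 ± 0.07 FPKM in labelled deficient libraries and 3.85 ± 0.30 FPKM in controls (SD, n = 3 each, adjusted p = 0.066 with limma). Pik3r2, a regulatory subunit, and the kinases Araf and Braf had differences of 0.22, 0.19 and 0.14. Of 13 genes known to be induced by ERK, 0 passed with limma, 1 had an unadjusted p under 0.05 and the median difference was -0.08. That gene was Plaur, the urokinase receptor, at 5.58, 7.79 and 5.82 FPKM in the labelled deficient libraries, against 10.1, 13.4 and 8.61 FPKM in the controls. Egr2, Phlda1 and Junb had differences of -0.54, 0.17 and 0.24, and their groups overlapped.

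**Figure D4:**
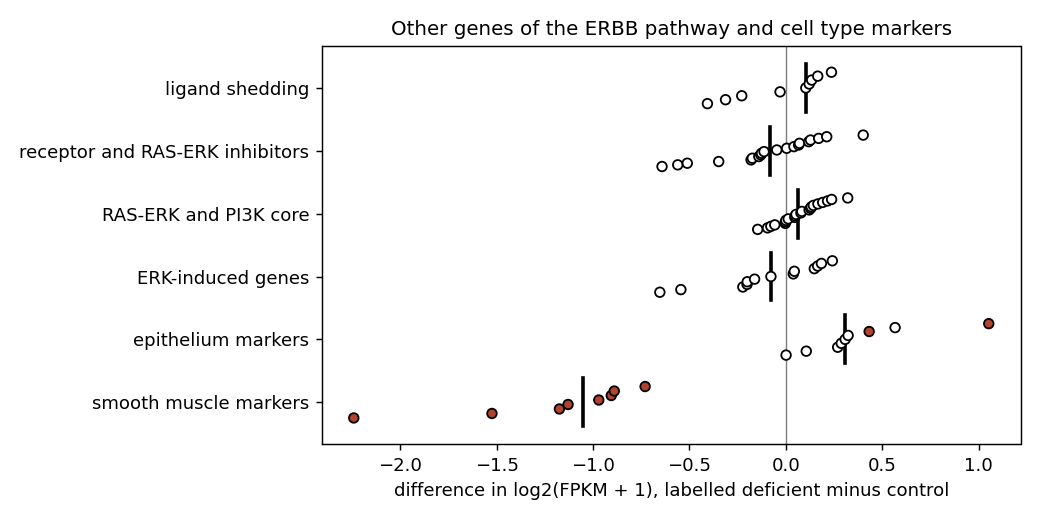
Difference in log2(FPKM + 1), labelled deficient minus control, for each tested gene of 4 pathway lists and 2 marker lists. Filled points have a limma adjusted p under 0.05 and the black lines are medians. The medians of the pathway lists lie between -0.08 and 0.10, that of the epithelial markers at 0.31 and that of the smooth muscle markers at -1.05.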

How the data were processed

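Total RNA of 6 uterine samples, 3 labelled deficient in myometrial PGR and 3 control, was extracted with TRIzol and sequenced, per the labels' protocols. The authors deposited FPKM to 3 decimals, 1 column per sample. Cutadapt 2.7, STAR 2.7.0f, DESeq2 1.24.0 and build mm10 are named in the submitters' processing notes, without roles. The sources used here do not give the counting program, strand setting, annotation or FPKM formula. Reads of overlapping genes may therefore not be told apart. FPKM can shift for all genes where a few transcripts are very abundant.

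Columns were matched to samples by the description in the labels, with 0 unmatched. A gene was tested when its mean reached 1 FPKM, with limma 3.58.1 in R 4.3.3 on log2(FPKM + 1), with an intensity trend, no covariate and Benjamini-Hochberg adjustment over all 12500 genes, at 0.05. The log2 scale understates changes of low genes. Single values were compared by exact two-sided permutation tests (scipy 1.17.1). The code was tested on simulated data. Read worth came from genes under 0.35 FPKM with 1 annotated transcript (GENCODE M21, GRCm38), over a grid of library sizes. Nothing states that this size is the sequencing depth, so depth is unknown. Permutations and intervals cover these libraries only.

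The members, lists, tests and alternatives were chosen with earlier results of these data known. The text names all members, Pgr, every gene called in a pathway list or otherwise up to 4 with the smallest p, and the 5 genes nearest in profile to Errfi1 and to Egfr, without unnamed gene models. Genes of marker lists were named after their values were seen. The alternatives were other pseudocounts (0.1 and 0.5), filters (none, or 5 FPKM), scalings, limma settings, the replicate number as a block, and libraries left out.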

Additional observations from a re-analysis of the deposited data

How the results depend on the processing

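Errfi1 kept its direction under all 17 alternatives and its call under 13 of them, Erbb3 its direction under 17 and its call under 12, and Erbb2 its direction under 17 and its call under 8. With 1 library left out, the Errfi1 difference ranged from -1.31 to -1.06, the number of members called from 0 to 3 and the number of all genes called from 99 to 525, in fits with fewer samples. The Egfr difference ranged from -0.045 to 0.13 with 1 library left out, and it turned negative with median-of-ratios scaling (-0.0055), array weights (-0.016), without control 3 (-0.045) and without the third library of both groups (-0.073). The median difference of all genes turned to -3.89e-05 with median-of-ratios scaling. The number of all genes called was 1770 with array weights and 1275 without the third library of both groups, against 417. The cause was not tested. With the replicate number as a block, 1 member (Errfi1) and 143 genes were called, and the adjusted p was 0.070 for Erbb3 and 0.093 for Erbb2. The labels do not say that same-numbered libraries are paired. Deviations of same-numbered libraries correlated at -0.14, 0.08 and -0.13 across genes, and those of differently numbered ones at between -0.13 and 0.2. Such correlations cannot show whether libraries shared a batch. Depth per library is unknown, and Areg was at or under 3 reads in every library.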

Other observations

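Erbb3 per unit of Erbb2 was 1.07, 0.98 and 0.94 in the labelled deficient libraries and 0.89, 0.87 and 0.84 in the controls, without overlap (exact two-sided permutation p = 0.1, the smallest possible). Erbb3 per unit of Egfr was 2.40, 2.12 and 1.94 in the labelled deficient libraries and 1.34, 1.11 and 1.75 in the controls, also without overlap. Erbb2 per unit of Egfr was 2.25, 2.16 and 2.07 in the labelled deficient libraries and 1.5, 1.27 and 2.09 in the controls, where control 3 lay within the other group. These ratios were chosen after the values were seen.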
